A study of Ovis aries with 2 samples.

Results

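Simple epithelium was followed here through 9 of its marker genes, the keratins KRT7, KRT8, KRT18 and KRT19, the claudins CLDN4 and CLDN7, the adhesion proteins EPCAM and CDH1, and the uroplakin UPK3A. The genes were looked up by symbol among the 26478 features of the deposited matrices, and all 9 were found, each on 1 feature. Single-cell RNA had been measured in embryos collected on day 16 of pregnancy from Ujumqin sheep, a long-tailed breed that served as the control, and from Hulunbuir Short-tail sheep. Embryos of each breed were pooled into 1 library after extraembryonic tissue had been taken off with forceps, and red blood cells were lysed after dissociation. Each breed was thus measured once, so the breed cannot be told apart from the pool, the dissection or the library, and no difference between breeds could be tested. The Ujumqin library held 17059 barcodes and 212933364 UMIs (unique molecular identifiers, each of which counts 1 captured RNA molecule). The Hulunbuir library held 10709 barcodes and 131385353 UMIs. Cells with at least 200 genes and under 10% of UMIs from mitochondrial genes were kept, which left 14554 Ujumqin cells with a median of 9519 UMIs and 9583 Hulunbuir cells with a median of 11879 UMIs. The libraries shared 61 barcodes, of which 50 were kept in both.

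A simple epithelium is a sheet with a single layer of polarised cells, such as those that line the gut, the ducts of glands and the yolk sac. Its intermediate filaments are built from KRT8 paired with KRT18, joined in many tissues by KRT19 and KRT7, while claudins seal the tight junctions between neighbouring cells and CDH1 and EPCAM hold the cells together. Uroplakins form plaques on the luminal face of the urothelium, the lining of the bladder and urinary tract, so that a combination of these genes can tell epithelial kinds apart. The question asked of the data was which cells carried which of the 9 genes, and whether the combinations separated kinds of epithelium within each library. Levels are in CPM, the UMIs of a gene for every 1000000 UMIs in the cells in question. All intervals are 95% intervals and cover counting error only. They are exact Poisson for levels, conditional exact binomial for folds and exact binomial for shares of cells.

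The filament keratins were higher in the Hulunbuir library. KRT8 (ENSOARG00020009368), the type II partner of the pair, stood at 39.1 CPM in Ujumqin cells (interval 38.2 to 39.9) and at 221 CPM in Hulunbuir cells (218 to 223), a log2 fold of Hulunbuir over Ujumqin of 2.50 (2.46 to 2.53). KRT18 (ENSOARG00020009288), its type I partner, stood at 643 CPM (639 to 646) and 2947 CPM (2938 to 2957), a log2 fold of 2.20 (2.19 to 2.21). KRT8 and KRT18 are neighbours in the genome, by the RefSeq annotation of a later sheep assembly, in which 8 of the 9 genes were matched and KRT7 was not. KRT19 (ENSOARG00020005482), the smallest type I keratin, had 686 CPM (682 to 689) and 2397 CPM (2388 to 2405), a log2 fold of 1.81 (1.80 to 1.81). KRT7 (ENSOARG00020014582), a type II keratin of ducts, urothelium and trophoblast, was closer between the libraries, at 8.41 CPM (8.02 to 8.81) and 14.9 CPM (14.2 to 15.6), a log2 fold of 0.83 (0.73 to 0.92). None of these 4 pairs of intervals overlapped.

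The junction genes and the uroplakin did not share a direction. EPCAM (ENSOARG00020005022), a homophilic adhesion molecule of epithelia and stem cells, was 5.01-fold higher in the Hulunbuir library, at 7.25 CPM in Ujumqin cells (interval 6.89 to 7.62) and 36.3 CPM in Hulunbuir cells (35.3 to 37.4). CLDN7 (ENSOARG00020017686), a claudin found along the lateral membrane, rose less, from 11.9 CPM (11.4 to 12.4) to 18.9 CPM (18.1 to 19.7), a log2 fold of 0.67 (0.59 to 0.75). CLDN4 (ENSOARG00020021120), a claudin of tight epithelia, was lower in the Hulunbuir library, at 23.8 CPM (23.2 to 24.5) against 15.8 CPM (15.2 to 16.6), a log2 fold of -0.59 (-0.66 to -0.51). The directions of CLDN4 and CLDN7 therefore differed, although both are parts of the same kind of junction. UPK3A (ENSOARG00020001742), a uroplakin with a long cytoplasmic tail, had 2.41 CPM (2.20 to 2.63) and 1.21 CPM (1.03 to 1.42) and was 1.99-fold higher in the Ujumqin library, just short of 2-fold. CDH1 (ENSOARG00020008507), which encodes E-cadherin, had 46 UMIs in all kept Ujumqin cells and 22 in all kept Hulunbuir cells. Its levels were 0.219 CPM (0.161 to 0.293) and 0.171 CPM (0.107 to 0.259), and these intervals overlapped.

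**Figure D1:**
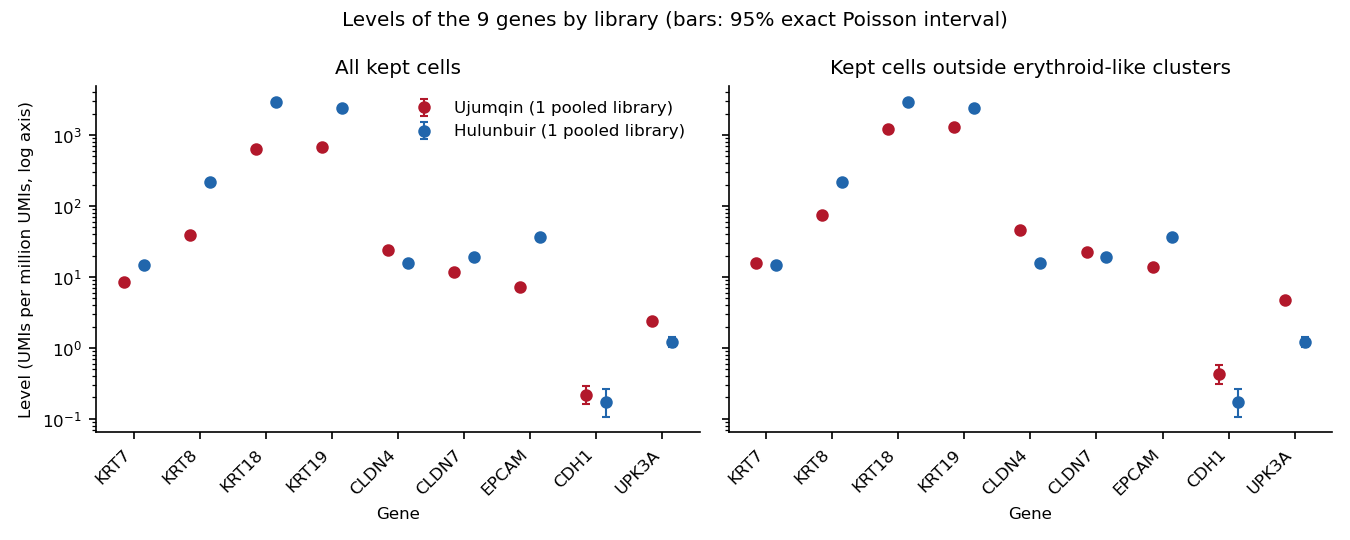
Level of each of the 9 genes in CPM on a log axis, for the Ujumqin and the Hulunbuir library, in all kept cells and in those left without the erythroid-like clusters; points are levels and bars are exact 95% Poisson intervals. KRT8, KRT18, KRT19 and EPCAM lie higher in the Hulunbuir library in both panels, and KRT7 and CLDN7 change sides between the panels.

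Over all kept cells, 4 of the 9 genes (KRT8, KRT18, KRT19 and EPCAM) were at least 2-fold higher in the Hulunbuir library. Of the 13476 features with at least 20 UMIs in the libraries together, 45.1% were, so the share of the 9 genes was near that of the background. By the same limit 0 of the 9 genes were higher in the Ujumqin library, as were 5.01% of the features. The median log2 fold was 0.83 over the 9 genes and 0.91 over all features.

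Blood cells moved with these folds. The erythroid-like clusters 1, 3, 4 and 6 of the Ujumqin library held 6276 cells, 43.1% of its kept cells and 49.2% of their UMIs, and the Hulunbuir library had no erythroid-like cluster. Of the erythroid marker list, 12 of 12 genes had UMIs in the Ujumqin library, with a summed level of 1156 CPM and AHSP, a haemoglobin chaperone, as the most abundant at 632 CPM. In the Hulunbuir library 11 of 12 had UMIs, with a summed level of 17.6 CPM, HBQ1 as the most abundant at 10.3 CPM and SLC4A1 at 0. The folds were therefore also taken over the 8278 Ujumqin cells outside these clusters, a set chosen after the data were seen.

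Outside the erythroid-like clusters the folds of the filament keratins were smaller and kept their direction. KRT8 had 75.0 CPM in the Ujumqin cells and a log2 fold of 1.56 (interval 1.52 to 1.59), and KRT18 had 1237 CPM and a log2 fold of 1.25 (1.24 to 1.26). The log2 fold of KRT19 fell below 1, to 0.87 (0.86 to 0.88), with 1308 CPM in the Ujumqin cells. KRT7 had 16.0 CPM there, and its log2 fold of -0.10 (-0.19 to -0.00) had turned to the other side. EPCAM, at 13.7 CPM, stayed higher in the Hulunbuir library with a log2 fold of 1.40 (1.32 to 1.49). The claudins were now both lower in it, CLDN4 with a log2 fold of -1.52 (-1.60 to -1.45) and CLDN7 with -0.26 (-0.34 to -0.18). UPK3A was lower in the Hulunbuir library by a log2 fold of -1.95 (-2.21 to -1.68) and CDH1 by -1.31 (-2.11 to -0.54), the latter from 45 and 22 UMIs. In these cells 3 of the 9 genes (KRT8, KRT18 and EPCAM) were at least 2-fold higher in the Hulunbuir library, where 19.8% of 13235 features were. Another 3 (CLDN4, CDH1 and UPK3A) were at least 2-fold higher in the Ujumqin library, where 5.98% of the features were.

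A pair of Ujumqin clusters held most of the UMIs of CLDN4 and UPK3A. Of the 4990 Ujumqin UMIs of CLDN4, 2087 came from the extraembryonic (ExE) endoderm-like cluster 13, whose cells carry genes of the yolk sac lining, and 1269 from cluster 19. Markers of ExE endoderm summed to 6160 CPM in the Ujumqin library, with 15 of 15 genes seen and AHSG, a fetal plasma protein, the most abundant at 2526 CPM. They summed to 353 CPM in the Hulunbuir library, with 14 of 15 seen, APOA1 the most abundant at 195 CPM and APOA4 at 0. Of the 505 Ujumqin UMIs of UPK3A, 406 came from the 42 cells of cluster 19. The part of these cells in the folds between the breeds was not tested.

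Each library was clustered on its own without the 9 genes and without lists of other epithelial genes. The levels of the 9 genes over the clusters were thus not used to form them. A list of mesenchymal genes was not set aside, and its genes could be used. Clustering gave 21 Ujumqin and 19 Hulunbuir clusters, numbered from the largest down. A name ending in -like was given only where marker lists supported it. KRT18 ran from 16.0 CPM through a median of 1135 CPM to 4144 CPM over the Ujumqin clusters, and from 134 through 819 to 9053 CPM over the Hulunbuir clusters. In the order of its levels, the intervals of neighbouring clusters overlapped in 8 of 20 Ujumqin pairs and 5 of 18 Hulunbuir pairs. The Ujumqin order was led by clusters 15, 17, 7, 19 and 5, none of whose intervals overlapped with that of the next. Clusters 7, 15 and 17 were mesenchyme-like, with COL1A1 or DCN, genes of connective tissue matrix, among their leading genes. The Hulunbuir order was led by clusters 10, 14, 2, 3 and 4, again without overlap, and cluster 3 was allantois mesenchyme-like while the others had no name.

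The filament keratins were also high in clusters with low levels of the junction genes. In Ujumqin cluster 15, of 175 cells, KRT18 reached 4144 CPM (interval 4103 to 4186) while EPCAM had 0 UMIs, which allows up to 0.399 CPM. CLDN4 had 4.65 CPM there, with a UMI in 37 of the 175 cells, CLDN7 had 1.08 CPM and KRT7 0.108 CPM. Cluster 17, of 83 mesenchyme-like cells, had the highest Ujumqin level of KRT8, 399 CPM (376 to 424), and of KRT19, 9606 CPM (9489 to 9723), with 10.7 CPM of CLDN4, 1.11 CPM of EPCAM and 0 UMIs of KRT7, which allows up to 1.36 CPM. Hulunbuir cluster 2, of 1631 cells led by REG4, COL1A1 and DCN, had the highest KRT19 level of that library, 4505 CPM (4482 to 4528), with 5215 CPM of KRT18 and 1.54 CPM of EPCAM (1.15 to 2.03). After each cell was thinned to 1000 UMIs, 98.3% of the cells of Ujumqin cluster 15 and 95.9% of those of Hulunbuir cluster 2 had a UMI of KRT8 or KRT18 and none of CLDN4, CLDN7, EPCAM or CDH1. At this depth the share was also 42.9% in Ujumqin cluster 19 and 50.9% in Hulunbuir cluster 10, which had the most junction RNA. Without thinning, the cells of Ujumqin cluster 15 had a median of 35885 UMIs. EPCAM was then seen in 0 and CLDN7 in 9 of the 175 cells. The part of depth in these shares was not tested.

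The ratio of KRT18 to KRT8 ranged more widely over the Ujumqin than over the Hulunbuir clusters. The number of KRT18 UMIs for each KRT8 UMI ran from 7.80 in cluster 17 to 28.3 in cluster 16 over 18 Ujumqin clusters, with a median of 17.0. Over 18 Hulunbuir clusters it ran from 11.2 in cluster 1 to 18.6 in cluster 11, with a median of 13.98. The highest Ujumqin ratio rested on only 7.29 CPM of KRT8 in the 145 cells of cluster 16, and the ratios have no intervals. The order of KRT8 was led by clusters 17, 15, 7 and 5 in the Ujumqin library, where the intervals of clusters 5 and 19 overlapped. In the Hulunbuir library cluster 10 led with 579 CPM (557 to 601), and the intervals of the clusters next in order, 3, 14, 2, 5 and 4, overlapped from neighbour to neighbour. The ratio of KRT19 to KRT18 ran over a wider range, with 0.498 to 3.08 UMIs for each KRT18 UMI over the Ujumqin clusters (median 1.01) and 0.296 to 1.47 over the Hulunbuir clusters (median 0.765). The lowest Hulunbuir ratio was that of cluster 10, which had the most KRT18, and the highest Ujumqin ratio that of the mesenchyme-like cluster 17.

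**Figure D2:**
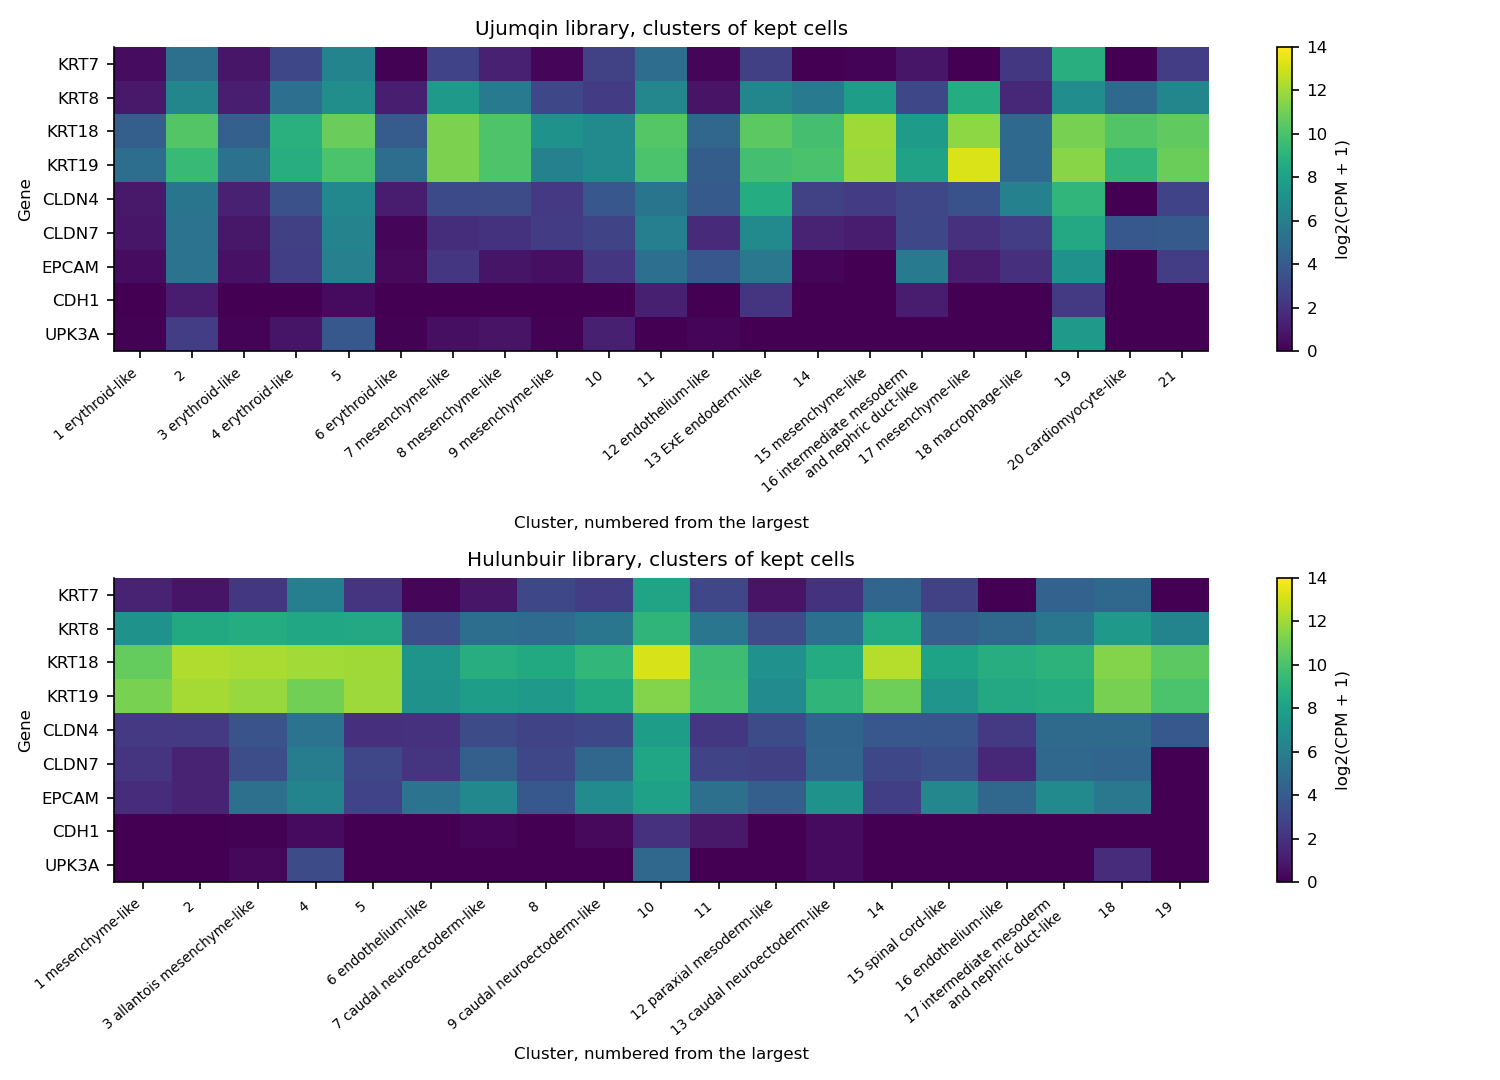
Heat maps of the level of the 9 genes, as log2(CPM + 1), in the 21 Ujumqin and the 19 Hulunbuir clusters; each row is a gene, each column a cluster, and yellow is the highest and dark blue the lowest level. KRT8, KRT18 and KRT19 are high across many clusters, whereas KRT7, CLDN4, CLDN7 and UPK3A are highest in Ujumqin cluster 19 and Hulunbuir cluster 10.

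KRT7 marked a far narrower set of cells than the other keratins. It was found at a median of 1.41 CPM over the Ujumqin clusters and 3.86 CPM over the Hulunbuir clusters. Its highest Ujumqin level was 445 CPM (interval 417 to 474) in cluster 19, where 38 of 42 cells had a UMI, followed by 77.9 CPM (68.1 to 88.7) in cluster 5. Clusters 2 and 11 came next with overlapping intervals, at 35.4 and 31.6 CPM. It was highest in cluster 10 of the Hulunbuir library, at 284 CPM (269 to 299) with a UMI in 183 of 283 cells, and then in cluster 4, at 63.8 CPM (54.9 to 73.8). All other Hulunbuir clusters had 25.3 CPM or less. Intervals of neighbours in these orders overlapped in 17 of 20 Ujumqin pairs and in 15 of 18 Hulunbuir pairs, most of them among clusters with few UMIs of the gene.

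The claudins were highest in the clusters with the most KRT7. CLDN4 reached 594 CPM (interval 562 to 628) in Ujumqin cluster 19 and 230.3 CPM (217 to 244) in Hulunbuir cluster 10. It was also high beside low KRT7 in the ExE endoderm-like cluster 13, at 412 CPM (395 to 430), ahead of clusters 5 and 18, whose intervals overlapped. The value of cluster 18, 70.5 CPM (55.3 to 88.6), belonged to macrophage-like cells with 27.0 CPM of KRT18. CLDN7 had its highest levels in the same clusters as KRT7, 344 CPM (319.6 to 369.9) in Ujumqin cluster 19 and 309 CPM (293 to 325) in Hulunbuir cluster 10. Its next levels were 99.5 CPM in Ujumqin cluster 13, above clusters 5 and 11, which overlapped, and 61.0 CPM in Hulunbuir cluster 4.

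EPCAM was also found in clusters of neural, mesodermal and endothelial character. It was highest in Hulunbuir cluster 10, at 262 CPM (interval 247 to 277), and then in the caudal neuroectoderm-like cluster 13, at 139 CPM (126 to 153). Behind these came the caudal neuroectoderm-like clusters 9 and 7, the intermediate mesoderm and nephric duct-like cluster 17 and the spinal cord-like cluster 15, from 107 to 89.4 CPM, each overlapping with the next in order. The Hulunbuir endothelium-like cluster 6 had 39.4 CPM of EPCAM (35.8 to 43.3) beside 150.2 CPM of KRT18, 3.03 CPM of CLDN4 and 3.29 CPM of CLDN7. For each 100 UMIs of KRT18 there were 35.9 of EPCAM in Hulunbuir cluster 13 and 26.2 in cluster 6, but 1.23 over all kept cells of that library. The Ujumqin order was cluster 19, at 140.4 CPM (125 to 157), followed by clusters 5, 16, 13, 2 and 11, from 67.3 to 33.2 CPM, whose intervals overlapped from neighbour to neighbour. Of these, cluster 16 was intermediate mesoderm and nephric duct-like and had 54.3 CPM of EPCAM (45.5 to 64.3) beside 207 CPM of KRT18.

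CDH1 was too rare for a full order of the clusters. Its highest levels were 4.21 CPM (interval 1.93 to 7.997) in Ujumqin cluster 19, from 9 UMIs, and 2.99 CPM (1.63 to 5.01) in Hulunbuir cluster 10, from 14 UMIs. The intervals overlapped in every pair of neighbours in both libraries, although that of Hulunbuir cluster 10 lay above the 0.130 and 0.112 CPM that 0 UMIs allow in clusters 1 and 2. The Ujumqin cluster with the most CDH1 UMIs was the ExE endoderm-like cluster 13, with 17. E-cadherin transcripts were also seen where CLDN4 was low, with 3 UMIs each in Ujumqin cluster 16 and Hulunbuir cluster 11, and the depth does not allow more to be said.

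UPK3A was high in few clusters. In Ujumqin cluster 19 it had 190.0 CPM (interval 172 to 209), with a UMI in 35 of 42 cells. Cluster 5 followed with 13.7 CPM (9.81 to 18.7), and then cluster 2 with 4.77 CPM, which overlapped with cluster 10. In the Hulunbuir library cluster 10 had 26.0 CPM (21.6 to 31.1), from 122 UMIs in 32 cells, and cluster 4 had 8.07 CPM. Of the clusters, 9 Ujumqin and 12 Hulunbuir ones had 0 UMIs of UPK3A. These included Ujumqin cluster 11, of 403 cells, where 0 UMIs allow up to 0.489 CPM, and cluster 13, where they allow up to 0.729 CPM.

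**Figure D3:**
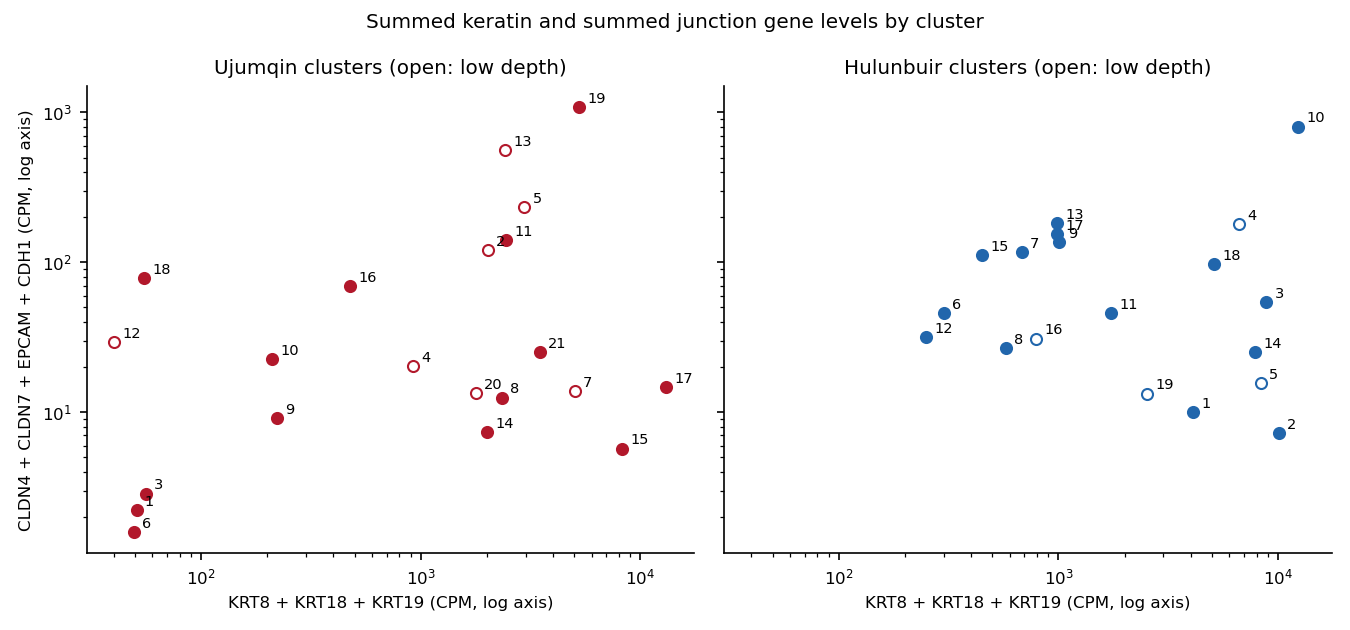
Summed level of KRT8, KRT18 and KRT19 against that of CLDN4, CLDN7, EPCAM and CDH1 in each cluster, in CPM on log axes, with an open point for a cluster of low depth. Ujumqin cluster 19, with 5239 CPM of keratins and 1083 CPM of junction genes, and Hulunbuir cluster 10, with 12311 and 804 CPM, stand at the top, and mesenchyme-like clusters with as much keratin lie far below them.

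A cluster was called rich in the 9 genes when at least 5 of them had at least 10 UMIs in it and a level at least 4-fold that of the other kept cells of the library. By this rule cluster 19 was the rich cluster of the Ujumqin library and cluster 10 that of the Hulunbuir library. That at least 5 of the 9 genes passed in these clusters, with a median fold past the limit, follows from the rule. The shares of all features are given beside them as a description only. In cluster 19, 6 of the 9 genes (KRT7, KRT19, CLDN4, CLDN7, EPCAM and UPK3A) passed, where 5.25% of 5141 features did, and the median log2 fold was 4.81 over the 8 of the genes with at least 10 UMIs there, CDH1 left out, and 0.42 over all features so tested. UPK3A was 398-fold above the other cells there, a log2 fold of 8.64 (interval 8.32 to 8.97), and KRT7 114-fold, a log2 fold of 6.83 (6.69 to 6.96). CLDN7 and CLDN4 followed with log2 folds of 5.34 and 5.05, while KRT18 and KRT8, at 1.82 and 1.56, did not reach 4-fold. In Hulunbuir cluster 10, 6 of the 9 genes (KRT7, CLDN4, CLDN7, EPCAM, CDH1 and UPK3A) passed, where 3.94% of 7595 features did, with median log2 folds of 4.89 over the 9 genes and -0.13 over the features. UPK3A had a log2 fold of 6.57 (6.01 to 7.16) in it and KRT7 of 5.90 (5.76 to 6.04), and KRT19, with a log2 fold of 0.17 (0.14 to 0.19), was barely above the other cells. Which Ujumqin cells were rich depended on the settings, since the rich clusters held 42 cells here, 949 once the marked doublets were removed and 718 at a clustering resolution of 2, with a cluster of 42 cells and 6 of the 9 genes found each time. The keratins shared with mesenchyme thus stood out less in these clusters than KRT7, the claudins and UPK3A.

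Neither rich cluster could be given a name from the markers. The leading genes of Ujumqin cluster 19, ranked by their fold over the median cluster, were KRT7, S100A5, UPK3A, AP1M2 and WFDC2. Of the marker lists, that of allantois epithelium and urothelium counted most in it, with UPK1A, UPK1B, HOXA13, HOXD13 and GATA3, but none of these was among its 10 leading genes. Hulunbuir cluster 10 was led by AHSG, SERPINA1, APOA2, CXCL14 and TTR, of which AHSG, SERPINA1, APOA2 and TTR are genes of ExE endoderm and liver, while the list that counted most in it was surface ectoderm, the future skin. Scrublet, which scores barcodes that may hold a pair of cells, marked 0 cells in either cluster, and 18 of the 283 cells of Hulunbuir cluster 10 were among the highest scores, 10 of them among the 56 cells of the sub-cluster 10c described below, against 849 of the 9583 kept cells. Their part in the levels of that sub-cluster was not tested.

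Another 3 Ujumqin clusters had 4 of the 9 genes past the limits, and each had a different set. They too were picked by this number, so it is no separate result. Cluster 5, of 1326 cells, passed with KRT7, CLDN7, EPCAM and UPK3A, where 2.31% of 5277 features did, and CLDN4 was just under the limit at 3.98-fold. Its cells were shallow, with a median of 1261 UMIs, and it was led by CRABP1, KRT7 and AP1M2, with 37 of its 40 UPK3A UMIs in sub-cluster 5e. Cluster 11, of 403 cells, passed with KRT7, CLDN7, EPCAM and CDH1, where 10.2% of 8204 features did, and was led by CRABP1, COL2A1 and CXCL14. Most of these UMIs lay in its sub-cluster 11f, described below, whose 41 cells held 215 of the 238 KRT7 UMIs, 430 of the 492 of CLDN7, 175 of the 250 of EPCAM and 9 of the 10 of CDH1. Cluster 13, the 309 ExE endoderm-like cells, passed with CLDN4, CLDN7, EPCAM and CDH1, where 7.58% of 5885 features did. KRT7 in cluster 13 was lower than in the other cells, at 5.33 CPM (interval 3.51 to 7.76), a log2 fold of -0.67 (-1.28 to -0.12). Its CLDN4 was 29.0-fold above the other cells, so that high CLDN4 beside low KRT7 and 0 UMIs of UPK3A set the ExE endoderm-like cells apart from cluster 19.

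To look at kinds of epithelium within these clusters, those of at least 100 cells with at least 4 of the genes past the limits were clustered again, a step added after the data were seen. Hulunbuir cluster 10 split into 5 sub-clusters. Sub-clusters 10a, 10b and 10e, of 75, 72 and 39 cells, were surface ectoderm-like, sub-cluster 10d, of 41 cells, was ExE endoderm-like, and sub-cluster 10c, of 56 cells, had no name. Sub-cluster 10c was led by KRT7, S100A5, AP1M2, UPK3A and S100A2, and 4 of these 5 genes (KRT7, S100A5, AP1M2 and UPK3A) were also among the 5 that led Ujumqin cluster 19. In the Ujumqin library, sub-cluster 11f, of 41 cells, was surface ectoderm-like by TFAP2A, TFAP2B, DLX5, MSX2, GATA3 and PERP. Sub-cluster 5e, of 90 cells, had no name and was led by KRT7, S100A5, AP1M2, RAB25 and UPK3A.

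UPK3A was high in the same groups of cells as S100A5, a calcium-binding protein, and both were among the genes that led them. In Hulunbuir sub-cluster 10c it had 78.9 CPM (interval 65.2 to 94.5), with a UMI in 27 of 56 cells, 26 of which also had KRT7. The surface ectoderm-like sub-clusters 10a and 10b had 4 UMIs and 1 UMI of UPK3A, and 10d and 10e had 0, which allows up to 10.3 and 8.35 CPM. In Ujumqin sub-cluster 5e UPK3A had 98.3 CPM (69.2 to 136). In the surface ectoderm-like 11f it had 0 UMIs in 41 cells, which allows up to 2.46 CPM and a UMI in up to 8.60% of such cells. S100A5 itself had 403 CPM in Ujumqin cluster 19, 324 CPM in 5e and 146 CPM in 10c. Of the 353 kept Ujumqin cells with S100A5, 38 were in cluster 19 and 59 in 5e. Of the 180 such Hulunbuir cells, 27 were in 10c, so most cells with S100A5 lay outside these groups. TFAP2B, a transcription factor of surface ectoderm and neural crest, was seen in 23 of 41 cells of 11f and in 56 of 72 of 10b. It was seen in 0 of 42 cells of cluster 19 and in 0 of 56 cells of 10c. These counts allow a UMI in up to 8.41% and 6.38% of such cells, and do not limit the share that expresses the gene. UPK3A and TFAP2B were thus detected mostly in different groups of cells in both libraries.

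Posterior Hox genes were found in part of the UPK3A cells and did not mark them alone. In Ujumqin sub-cluster 5e, whose cells had a median of 3530 UMIs, HOXA13 and HOXD13 were each seen in 0 of 90 cells. HOXD13, the last gene of its cluster and active in the hindmost part of the embryo, was seen in 8 of 42 cells of Ujumqin cluster 19 and in 7 of 56 of sub-cluster 10c. It was seen in 0.289% of all kept Ujumqin cells and in 1.44% of all kept Hulunbuir cells. HOXA13 was seen in 6 of 42 and 15 of 56 of these cells, but also in 13.5% of all kept Hulunbuir cells, at 12.7 CPM against 16.8 CPM in 10c. Of the 12 allantois epithelium and urothelium genes in the files, 8 had UMIs in cluster 19, with a summed level of 59.4 CPM, GATA3 the most abundant at 35.6 CPM, and CDX2, CDX1, TBX2 and KRT20 at 0. In 10c 11 of the 12 had UMIs, with a summed level of 96.4 CPM, CDX2 the most abundant at 31.0 CPM, and CDX1 at 0.

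The 9 genes were then compared between the epithelium with the most UPK3A and the epithelium with the most TFAP2B in each library, a comparison chosen after the data were seen. The former were Ujumqin cluster 19 and Hulunbuir sub-cluster 10c, and the latter Ujumqin 11f and Hulunbuir 10b. KRT7 was higher in the UPK3A epithelium in both libraries, at 445 CPM against 144 CPM in Ujumqin cells, a log2 fold of 1.63 (interval 1.42 to 1.85). In Hulunbuir cells it was at 499 CPM (463 to 536) against 179 CPM (158 to 203), a log2 fold of 1.48 (1.27 to 1.69). CLDN4 differed more, with 594 against 160.4 CPM and a log2 fold of 1.89 (1.69 to 2.09) in Ujumqin cells. Its Hulunbuir levels were 448 CPM (415 to 484) against 88.3 CPM (73.3 to 105), a log2 fold of 2.34 (2.06 to 2.63). KRT7 and CLDN4 were therefore higher in the UPK3A epithelium of both libraries.

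The filament pair went the other way. KRT18 was at 2207 CPM in Ujumqin cluster 19 (interval 2145 to 2271) and 3664 CPM in 11f (3567 to 3762), a log2 fold of -0.73 (-0.79 to -0.67). In Hulunbuir cells it was at 4561 CPM in 10c (4453 to 4671) and 11619 CPM in 10b (11441 to 11800), a log2 fold of -1.35 (-1.39 to -1.31). KRT8 moved with its partner, with log2 folds of -1.11 (-1.35 to -0.87) in Ujumqin and -1.50 (-1.67 to -1.33) in Hulunbuir cells. The surface ectoderm-like cells were thus the ones richer in KRT8 and KRT18, in both libraries. KRT19 was lower in the UPK3A epithelium of the Ujumqin library, with a log2 fold of -0.44 (-0.49 to -0.38), and in the Hulunbuir library its log2 fold of -0.03 (-0.10 to 0.03) was within counting error.

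CLDN7 and EPCAM separated these kinds little. CLDN7 was slightly higher in the UPK3A epithelium, with log2 folds of 0.26 (interval 0.09 to 0.44) in Ujumqin and 0.45 (0.27 to 0.64) in Hulunbuir cells. The log2 fold of EPCAM was 0.26 in Ujumqin cells (-0.01 to 0.54), which counting error covers, and 0.43 (0.22 to 0.63) in Hulunbuir cells. CDH1 rested on 9 and 9 UMIs in the Ujumqin and on 8 and 1 in the Hulunbuir pair, with log2 folds of -0.51 (-2.02 to 0.99) and 2.91 (0.01 to 8.38). These intervals do not cover differences between embryos, of which each library is a single pool.

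**Figure D4:**
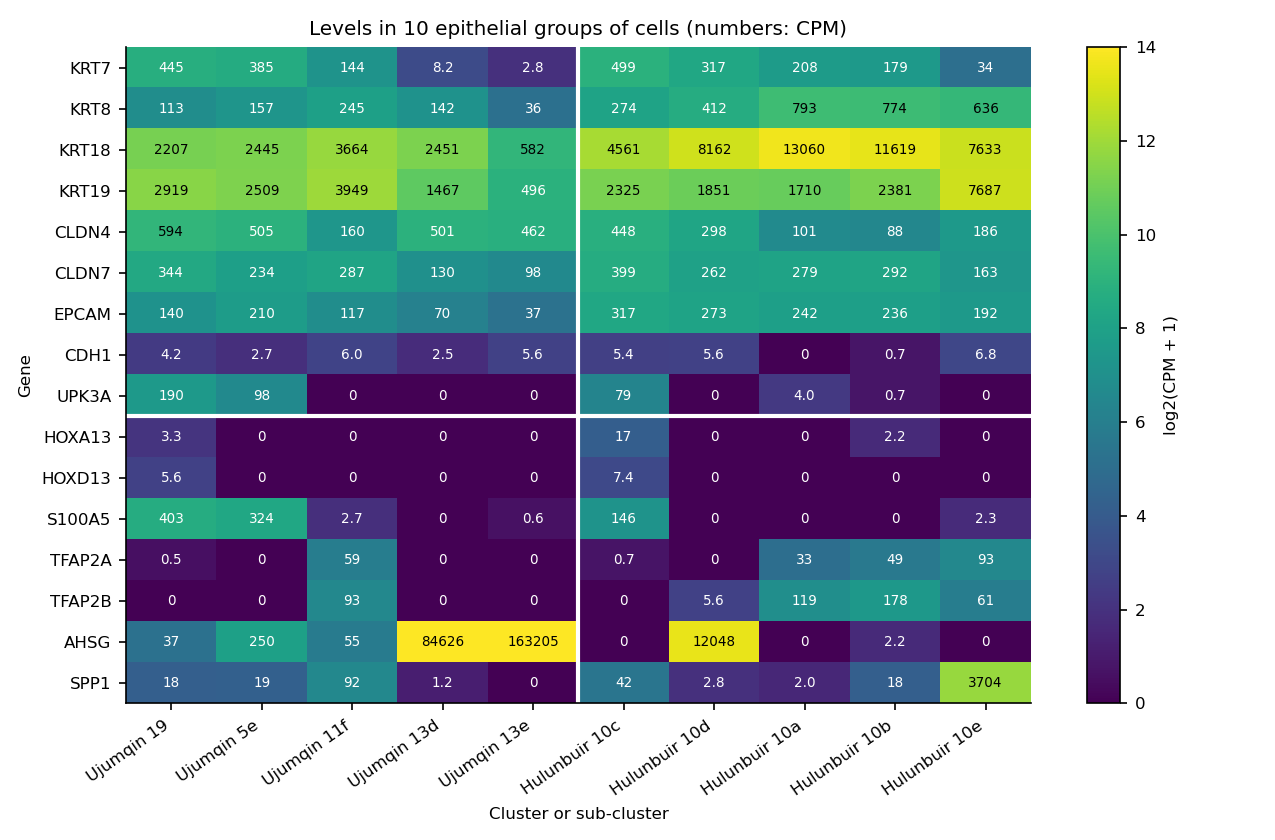
Levels in CPM, printed in each cell and shaded on a log scale, of the 9 genes and 7 marker genes (rows) in the epithelial clusters and sub-clusters of both libraries (columns). UPK3A and S100A5 are high together in Ujumqin 19 and 5e and in Hulunbuir 10c, TFAP2B is high in 11f, 10a and 10b, and AHSG is high in 10d, 13d and 13e, with low KRT7 beside high CLDN4 in 13d and 13e.

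The other sub-clusters added further combinations. Sub-cluster 10a was close to 10b, with 208 CPM of KRT7 (interval 181 to 239) and 13060 CPM of KRT18 (12838 to 13286), the highest KRT18 level of any sub-cluster, and 1710.1 CPM of KRT19 (1630.3 to 1793). Sub-cluster 10e was unlike the other surface ectoderm-like cells in its keratins, with 34.0 CPM of KRT7 (19.01 to 56.0) and 7687 CPM of KRT19 (7431 to 7950). It was led by SPP1, CXCL14, TAC3, POSTN and TKDP1, but SPP1, a secreted phosphoprotein, was seen in 16 of its 39 cells and TKDP1 in 1. Among its lists, 8 of 13 surface ectoderm genes had UMIs, with a summed level of 317 CPM, and 10 of 12 amnion genes, with 1370 CPM, of which BAMBI made up 1116 CPM. In the deep ExE endoderm-like sub-cluster 13d, of 44 Ujumqin cells, CLDN4 had 501 CPM (473 to 530.04), KRT18 2451 CPM, KRT7 8.23 CPM (5.03 to 12.7) and UPK3A 0 UMIs, which allows up to 1.52 CPM. These deep cells, with a median of 30054 UMIs, held 1218 of the 2087 CLDN4 UMIs and 20 of the 27 KRT7 UMIs of cluster 13.

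In Hulunbuir sub-cluster 10d the ExE endoderm genes AHSG and TTR were seen mostly in cells without KRT7. KRT7 had 317 CPM in it (interval 262 to 381), with a UMI in 21 of 41 cells. AHSG, at 12048 CPM over the sub-cluster, was seen in 9 of the 41 cells, and in 2 of the 21 with KRT7. TTR was seen in 14 of the 41 cells, and in 3 of the 21 with KRT7. Of the ExE endoderm list, 13 of 15 genes had UMIs there, with a summed level of 27039 CPM and APOA4 and CUBN at 0. AHSG and TTR were thus each seen in a minority of the cells of 10d. The number of its cells with any gene of the list was not counted. UMIs of AHSG were also spread over the Ujumqin library, where 59.7% of all kept cells had 1 or more, against 0.845% in the Hulunbuir library. The part of such spread RNA in the levels of CLDN4 elsewhere in that library was not tested.

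Shares of cells with a UMI depend on depth, so each cell was thinned to 1000 UMIs, which left out 3345 Ujumqin and 516 Hulunbuir cells. KRT18 was then seen in 25.5% of Ujumqin cells and 61.6% of Hulunbuir cells (47.2% and 88.3% unthinned). KRT7 was seen in 1.08% and 1.14% (2.72% and 4.48% unthinned). EPCAM was seen in 1.28% and 3.72% (4.51% and 21.5% unthinned). Outside the erythroid-like clusters the thinned Ujumqin shares were 43.7% for KRT18, 1.85% for KRT7 and 2.29% for EPCAM. The KRT7 share was then higher in the Ujumqin library. Its interval of 1.53 to 2.22% did not overlap with the Hulunbuir interval of 0.928 to 1.38%. The erythroid-like cells, which should lack these genes, served as a measure of free RNA in the Ujumqin library, with a median of 20444 UMIs before thinning against 17515 for all cells thinned. Their thinned shares were 3.21% for KRT18, 4.56% for KRT19, 0.357% for KRT8, 0.139% for KRT7 and 0.0595% for EPCAM, and shares at or below these were read as background. These shares pool unlike clusters, since KRT18 was seen in 22.6% of the 381 thinned cells of the shallow cluster 4 and in 1.65%, 1.89% and 1.27% of those of clusters 1, 3 and 6. CDH1 was seen in 3 thinned Ujumqin cells, 0.0268%, too few to set against 0 of 5042 thinned erythroid-like cells, which allows up to 0.0731%. Without thinning, it was seen in 39 of 8278 Ujumqin cells outside the erythroid-like clusters, 0.471% (0.335 to 0.643%). In the erythroid-like cells it was then seen in 1 of 6276, 0.0159% (up to 0.0887%). The erythroid-like cells were deeper, with a median of 18261 UMIs against 2568.5. No Hulunbuir cluster was erythroid-like, and the endothelium-like cluster 6 of that library had 9.48% for KRT18, 3.83% for EPCAM and 0.605% for KRT8, and its cells had a median of 18203 UMIs.

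The filament keratins were detected together in both libraries. Of the thinned cells with KRT8, 84.7% had KRT18 in the Ujumqin library (interval 81.3 to 87.8%), against 22.8% of those without KRT8 and 40.2% of those without KRT8 outside the erythroid-like clusters. In the Hulunbuir library the shares were 94.0% (92.8 to 95.1%) and 54.5%. KRT19 was found in 63.4% of the Ujumqin cells with KRT18 and in 8.80% of those without (16.4% outside the erythroid-like clusters), and in 77.4% and 26.5% of the Hulunbuir cells. A cell with 1 of these keratins was therefore likely to show another at equal depth.

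KRT18 was seen more often in cells with EPCAM than in those without it in the Ujumqin library, and in the Hulunbuir library this was not so. Of the thinned Ujumqin cells with EPCAM, 70.8% had KRT18 (interval 62.7 to 78.1%), against 24.9% of those without EPCAM. The erythroid-like cells lower the latter share, and outside their clusters, a set chosen after the data were seen, the shares were 71.6% (63.4 to 78.9%) and 43.1% (41.8 to 44.3%). Of the Hulunbuir cells with EPCAM, 57.6% had KRT18 (52.1 to 62.9%), against 61.7% of those without (60.7 to 62.8%), so that these intervals overlapped. Read from the side of the keratin, EPCAM was found in 3.57% of the Ujumqin cells with KRT18 and in 0.503% of those without (1.15% outside the erythroid-like clusters), and in 3.47% and 4.11% of the Hulunbuir cells. The Hulunbuir cells with EPCAM and little KRT18 include the neural and endothelium-like clusters named above. CLDN7, in contrast, went with KRT18 in both libraries, in 4.06% of the cells with KRT18 and 0.347% of those without in the Ujumqin library (0.778% outside the erythroid-like clusters), and in 2.31% and 0.775% in the Hulunbuir library.

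Junction genes were found together, and with KRT7, in both libraries. CLDN7 was seen in 18.8% of the thinned Ujumqin cells with EPCAM (interval 12.7 to 26.1%) and in 1.07% of those without, and in 11.3% (8.10 to 15.1%) and 1.35% of the Hulunbuir cells. It was seen in 12.4% of the Ujumqin cells with CLDN4 and 1.12% of those without, and in 14.2% and 1.53% of the Hulunbuir cells. CLDN4 was seen in 15.7% of the Ujumqin cells with KRT7 (9.73 to 23.4%) and 1.36% of those without, and in 21.4% (13.9 to 30.5%) and 1.25% of the Hulunbuir cells. In the Ujumqin cells outside the erythroid-like clusters the shares without the first gene were higher, at 1.88% for EPCAM and CLDN7, 1.97% for CLDN4 and CLDN7 and 2.43% for KRT7 and CLDN4, and stayed below those with it. Any of the 4 junction genes was seen in 9.71% of the Ujumqin cells with KRT8 or KRT18 (8.66 to 10.8%) and in 1.34% of those with neither, or 10.1% and 3.09% outside the erythroid-like clusters. In the Hulunbuir library these shares were 6.57% (5.94 to 7.24%) and 5.55% (4.80 to 6.38%), which overlapped.

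**Figure D5:**
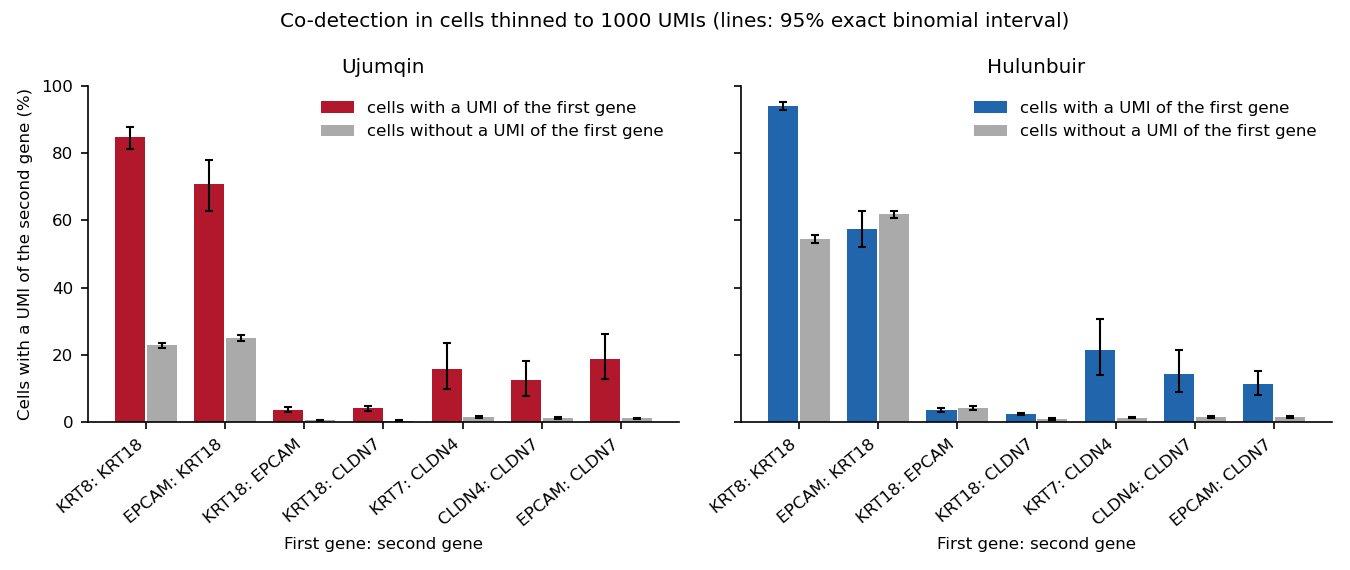
Percent of cells with a UMI of the second gene of each pair, among cells with and without a UMI of the first, in each library after thinning to 1000 UMIs per cell; bars start at 0 and lines are exact 95% binomial intervals. The bars with and without the first gene differ in each Ujumqin pair, and in the Hulunbuir library the intervals of EPCAM and KRT18 overlap.

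The share of UPK3A cells with KRT7 depended on depth, and at 1000 UMIs 4 of 24 Ujumqin cells and 5 of 7 Hulunbuir cells with UPK3A had KRT7. Without thinning, 71.6% of the 102 Ujumqin cells with UPK3A had KRT7 (interval 61.8 to 80.1%), against 2.23% of the cells without UPK3A. Of the 53 Hulunbuir cells with UPK3A, 90.6% had KRT7 (79.3 to 96.9%), against 3.998% of those without. The reverse did not hold, since 18.4% of Ujumqin cells with KRT7 and 11.2% of such Hulunbuir cells had UPK3A. Cells with at least 3 of KRT7, CLDN4, CLDN7 and EPCAM numbered 268 in the Ujumqin library, 1.84% of the kept cells (1.63 to 2.07%), and 368 in the Hulunbuir library, 3.84% (3.46 to 4.24%). Outside the erythroid-like clusters the Ujumqin number was 261 of 8278 cells, 3.15% (2.79 to 3.55%), and the intervals of the libraries overlapped. These shares were not thinned, so the libraries were not compared at equal depth. The Ujumqin cells outside these clusters had a median of 2568.5 UMIs, against 11879 for the Hulunbuir cells. UPK3A was seen in 62 of the 268 Ujumqin cells and in 46 of the 368 Hulunbuir cells. Among the 268 Ujumqin cells, 33 of the 35 in cluster 19 had UPK3A, while 0 of the 57 in the ExE endoderm-like cluster 13 and 0 of the 37 in cluster 11 did. Of the Hulunbuir cells 213 were in cluster 10 and 55 in cluster 4.

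The genes whose levels were most like those of each member were taken from 2800 candidates over the 40 clusters of both libraries, by Pearson's r of log2(CPM + 10). The clusters of a library share its depth and its free RNA, so r is a description. KRT8, KRT18 and KRT19 were most like each other, with r from 0.943 to 0.961, and then like RHOD, a small GTPase of endosomes, with r of 0.788, 0.849 and 0.810. KRT7 was most like RAB25 (0.946), a GTPase of apical recycling, AP1M2 (0.895), an epithelial clathrin adaptor subunit, and CLDN7 (0.885). CLDN7 was most like AP1M2 (0.960), KRTCAP3 (0.9403) and RAB25 (0.912). CLDN4 was most like HPN, a membrane serine protease, and AP1M2 (0.908 for each), and then KRTCAP3 (0.904). EPCAM went with other genes, SERINC2 (0.866), CD24 (0.820), a surface glycoprotein, and HOXB9 (0.768), a Hox gene of the trunk. UPK3A was most like DEGS2 (0.970), a sphingolipid enzyme, RAB25 (0.909) and S100A5 (0.861). CDH1 had no such genes, because it reached 50 CPM in no cluster.

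Among the members, r divided the keratins into the filament trio and KRT7. KRT7 had an r of 0.859 with UPK3A, 0.885 with CLDN7 and 0.782 with CLDN4, but of 0.430 with KRT8 and 0.343 with KRT19. CLDN4 and CLDN7 had an r of 0.873 with each other and of 0.288 and 0.409 with KRT18. EPCAM had an r of 0.748 with CLDN7 and of 0.111 with KRT19. Over these clusters KRT7 was therefore placed with the claudins and the uroplakin rather than with KRT8, KRT18 and KRT19.

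Other epithelial genes were counted in the rich clusters from lists, as genes with at least 10 UMIs in the cluster that were at least 4-fold above the other cells. Of all features with at least 10 UMIs, 5.25% passed in Ujumqin cluster 19 and 3.94% in Hulunbuir cluster 10. Among the transcription and splicing factors of epithelia, ELF3, EHF, ELF5 and KLF5 passed in Ujumqin cluster 19, and GRHL2, ESRP1, ELF3, TFAP2A, TFAP2C and TP63 in Hulunbuir cluster 10. ELF3, an ETS factor of epithelia, had a log2 fold of 5.62 (interval 5.19 to 6.04) in the former and 2.42 (2.08 to 2.75) in the latter. TFAP2A, a factor of surface ectoderm, had 1 UMI in cluster 19 and 30.5 CPM in cluster 10, a log2 fold of 4.84 there (4.49 to 5.19). The factors thus differed between the rich clusters in TFAP2A, which lay in the surface ectoderm-like sub-clusters, with a UMI in 32 of 72 cells of 10b and 1 of 56 of 10c.

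Of the 25 other tight junction genes in the files, 10 had 10 UMIs in Ujumqin cluster 19 and 6 passed, where 5.25% of all features did. In Hulunbuir cluster 10, 11 had them and 5 passed, where 3.94% of all features did. OCLN, TJP3, MARVELD2 and MARVELD3 passed in both. CXADR, an adhesion receptor at tight junctions, had log2 folds of 2.98 (interval 2.63 to 3.32) and 0.79 (0.62 to 0.96), and CLDN10 had 0 UMIs in cluster 19 and 24.3 CPM in cluster 10, a log2 fold of 3.35 there. Of 15 desmosome and adherens junction genes, 9 and 11 had 10 UMIs and 3 passed in each, with PKP3 and PPL in both. DSP, which anchors keratin to desmosomes, was little above the other cells, with log2 folds of 0.31 (-0.11 to 0.71) and 0.39 (0.26 to 0.53). Of 13 surface proteases and adaptors, 4 and 7 had 10 UMIs and 3 and 6 passed, with AP1M2 at 179 and 205 CPM and RAB25 at 74.0 and 44.8 CPM. AP1M2 and RAB25 were thus high in both rich clusters, as KRT7 and the claudins were.

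Of the other uroplakins, UPK1B, a tetraspanin of the same plaques as UPK3A, was the 1 gene with 10 UMIs in Ujumqin cluster 19, at 9.36 CPM against 0.347 CPM in the other cells, a log2 fold of 4.75 (interval 3.96 to 5.48). In Hulunbuir cluster 10 it had 8 UMIs, and UPK1A, UPK2 and UPK3B had 2 each. Of 38 other keratins in the files, KRT10 was the only 1 with 10 UMIs in the rich clusters, and it did not pass, with log2 folds of 1.04 (0.78 to 1.28) in cluster 19 and -0.15 (-0.36 to 0.06) in cluster 10. Keratins of stratified skin such as KRT5, with 0 and 2 UMIs, were thus hardly seen beside the simple keratins. Mesenchymal genes were not counted, since those lowest in a cluster have too few UMIs there to be tested. VIM, the filament protein of mesenchyme, had 149 CPM in cluster 19 and 172 CPM in cluster 10, log2 folds of -3.90 (-4.06 to -3.74) and -3.69 (-3.79 to -3.59). FN1, a matrix protein, was instead 4.27-fold higher in cluster 10 than in the other cells. Low VIM thus went with high KRT7, claudins and UPK3A in the rich clusters of both libraries. The mesenchymal genes, VIM among them, were not set aside for clustering, so their levels may have helped to form these clusters.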

How the data were processed

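Single-cell libraries (10x Chromium 3′, v3 chemistry) from pooled day-16 sheep embryos, 1 per breed and 2 in all, were available as raw UMI counts, which the authors made with Cell Ranger and deposited without normalization. The matrix headers name Cell Ranger 5.0.0, while the submitters' notes list Cell Ranger 3.1.0, Seurat 3.2.0 and R 3.6.1. The authors aligned reads to the Rambouillet v1.0 sheep genome, whose sequence was not available here.

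Cells with at least 200 genes and under 10% of UMIs from genes whose symbols begin with MT- were kept, 85.3% of the Ujumqin and 89.5% of the Hulunbuir barcodes. The 9 members and the gene lists were chosen with earlier results of these data known. A level was the UMIs of a gene summed over cells, divided by all UMIs of those cells. Folds were ratios of levels, and features with at least 20 UMIs in the libraries together were counted past 2-fold. Shares of cells were taken after thinning each cell to 1000 UMIs without replacement, and cells with fewer were left out. Without replicates, no tests were made.

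For clustering, counts were scaled to 10000 UMIs per cell and their logarithm was taken. The members and the 7 epithelial lists, except that of mesenchymal genes, were set aside. The 2000 most variable genes then gave 30 principal components, 20 neighbours, a shared-neighbour graph and Leiden clusters at resolution 1. A cluster took the name of 1 of 23 marker lists when at least 3 of its markers were found in at least 10% of cells and at 3-fold the median of the other clusters, 1 of them among the 10 leading genes, with no other list as good. Genes were named in the text by rule: the members, the 5 leading genes of each rich cluster, the 3 genes most like each member among those with at least 50 CPM in a cluster, and the 4 most abundant genes of each epithelial list in the rich clusters. Other genes were named from the marker lists or after their values were seen, among them S100A5 and S100A2 and the leading genes of sub-clusters.

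Doublets were scored with Scrublet, which marked 153 Ujumqin cells (1.05%) and 89 Hulunbuir cells (0.929%), where 13.6% and 8.57% were expected from the number of barcodes. Marked cells were kept and removed in an alternative. The other alternatives planned were at least 500 genes, no cell filter, a total from which 76 genes of mitochondria, ribosomes and haemoglobin were taken out, the mean of the cells' CPM, 4-fold for 2-fold, features with at least 1 UMI, thinning to 500 and 2000 UMIs, resolutions 0.5 and 2, members used for clustering, the libraries clustered together, and limits of 2-fold and 8-fold. Those chosen after seeing the data were the removal of erythroid-like clusters, of shared barcodes and of the highest doublet scores, thinning to 5000 UMIs, and a second clustering of clusters of at least 100 cells with at least 4 members past 4-fold. No correction for free RNA and no integration of the libraries was made. Calculations used Python 3.11.15 with numpy 2.4.6, scipy 1.17.1, pandas 2.3.3, scanpy 1.11.5, anndata 0.12.19, scikit-learn 1.9.0, leidenalg 0.10.2, igraph 0.11.9 and matplotlib 3.10.9, and were tested on simulated data.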

Additional observations from a re-analysis of the deposited data

Results flagged for a closer look

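Barcodes that the cell filter left out had member UMIs that are in none of the reported levels and enter only the alternative without a cell filter, which flagged them for a closer look. The 2505 barcodes left out of the Ujumqin library had a median of 815 UMIs, and the level of the 9 genes summed over them was 1025 CPM (interval 991 to 1059), against 1422 CPM in the kept cells. The 1126 barcodes left out of the Hulunbuir library had a median of 1360 UMIs and a summed level of 3767 CPM (3694 to 3840.3), against 5652 CPM in the kept cells. What these barcodes hold was not tested.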

How the results depend on the processing

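Levels, shares and clusters were computed again under the alternatives listed with the methods, and KRT7 and CLDN7, whose log2 folds of Hulunbuir over Ujumqin were 0.83 and 0.67, changed sides to -0.10 and -0.26 outside the erythroid-like clusters. With the mean of the cells' CPM the log2 fold of KRT7 was -0.04. No gene past 2-fold changed sides. Of the log2 levels, 77 stayed the same and 49 moved, and of the shares of cells with a UMI, 26 stayed and 55 moved, chiefly with the depth of thinning. The number of the 9 genes at least 2-fold higher in the Ujumqin library was 0, and became 2 with the mean of the cells' CPM, 1 without the highest doublet scores and 3 outside the erythroid-like clusters, the last pair of settings chosen after seeing the data. Outside those clusters 3 genes were 2-fold higher in each library, and 0 and 0 at 4-fold. With features of at least 1 UMI the percent of features higher in the Ujumqin library rose from 5.01 to 10.5. The cells in rich clusters moved most. In the Ujumqin library they numbered 42, and then 949 without the marked doublets, 718 at resolution 2, 1082 with the members used for clustering, 73 with the libraries clustered together and 3760 with a 2-fold limit. They numbered 896 without the highest doublet scores and 376 with clusters split again, both chosen after seeing the data. Hulunbuir cells in rich clusters went from 283 to 1188 with the 2-fold limit. The share of cells with KRT8 or KRT18 that had a junction gene went from 9.71% in the Ujumqin library to 5.15% at 500 UMIs, 14.1% at 2000 and 14.1% at 5000, a depth added after seeing the data. In the Hulunbuir library it went from 6.57% to 3.57%, 10.3% and 19.01% at these depths. The intervals cover counting error within a pool and not differences between embryos, and the cause of these shifts was not tested.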
